A study of Mus musculus with 18 samples.

Results

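Penk, Tac1, Drd1, Drd2, Adora2a, Ppp1r1b, Foxp1, Ikzf1, Isl1 and Ebf1, 10 genes that mark striatal projection neurons, were followed through RNA-seq and H3K9ac ChIP-seq of mouse embryonic cortex. They were chosen by symbol, and 10 of 10 were found among the 47729 genes of the count files and were among the 15000 genes tested. The tissue was bulk cortex at E15.5 from BAF155 cKO embryos, which had been given either TSA (trichostatin A, an inhibitor of histone deacetylases) or vehicle. BAF155 (gene Smarcc1) belongs to the BAF complex, which remodels nucleosomes, and its conditional knockout was carried by the Vehicle embryos as well, so no group with intact BAF155 entered any comparison here. There were 4 TSA and 4 Vehicle RNA libraries, and 4 TSA and 4 Vehicle H3K9ac libraries. The Cre line that drives the deletion, the cells it reaches, the dose and timing of TSA, the borders of the dissection, and whether a library stands for 1 embryo or several are not stated in the labels. P-values therefore measure the spread between these libraries, which may in part be technical.

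The striatum arises from the ganglionic eminences of the ventral telencephalon, next to the cortex, and most of its neurons are GABAergic projection neurons. In the adult striatum these neurons form the direct pathway, which carries the dopamine receptor Drd1 and the peptide precursor Tac1, and the indirect pathway, which carries Drd2, Adora2a and Penk. Isl1 and Ebf1 are transcription factors of direct pathway neurons as they form, Ikzf1 is a factor tied to enkephalin neurons, and Foxp1 and Ppp1r1b are found in both kinds. Several of these genes are not restricted to the striatum: Foxp1 and Ppp1r1b are also expressed by cortical projection neurons, and Ikzf1 is best known from lymphocytes and is also expressed by microglia.

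Total counts per library lay between 6733415 and 20400727 in TSA, where TSA 1 was the shallowest of the 8, and between 12200426 and 15600340 in Vehicle. The 15 markers of the dorsal excitatory lineage summed to 2934 to 3424 CPM (counts scaled to the normalised library size) in TSA and 1768 to 2555 CPM in Vehicle. Markers of the ganglionic eminences and GABA neurons summed to 682 to 981 CPM in TSA and 1623 to 1882 CPM in Vehicle. In Vehicle 4 they summed to more than the dorsal markers, 1869 against 1768 CPM. How far the tissue was cortex alone was not tested. Xist, which is transcribed from the inactive X chromosome, stood at 0.305, 1.47, 0.494 and 2327 CPM in TSA 1 to 4, against 3090, 2071, 1768 and 3118 CPM in Vehicle 1 to 4. Thus 5 libraries, TSA 4 and all 4 Vehicle libraries, were above 1000 CPM. TSA 4 lay within the Vehicle range, and high and low Xist split the libraries almost as treatment did. The labels do not give the sex of the embryos, so a difference in sex cannot be told apart from treatment in TSA 1 to 3. The mitochondrial share of counts was 1.48% to 1.71% in TSA and 1.599% to 3.36% in Vehicle.

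Of the 10 genes, 6 fell in TSA cortex and 1 rose. Penk, Tac1, Drd2, Adora2a, Ikzf1 and Ebf1 (6 genes) were lower in TSA by edgeR's quasi-likelihood test at an adjusted p under 0.05, Ppp1r1b (1 gene) was higher, and Drd1, Foxp1 and Isl1 (3 genes) did not pass. Among all 15000 tested genes, 17.6% were lower and 15.4% higher, 33.0% in all. Every TSA library lay below every Vehicle library for 3 of the 10 genes (Penk, Drd2 and Ikzf1), a pattern of 17.4% of tested genes, and above every Vehicle library for 1 (Ppp1r1b), a pattern of 14.9%. The median log2 fold change was −1.22 over the 10 genes and −0.01 over all tested genes. By pathway, 4 of the 4 indirect pathway genes and 2 of the 4 direct pathway genes fell, and the gene that rose belongs to the pair found in both. The median log2 fold changes were −1.66 for the indirect and −1.20 for the direct pathway genes. Of the direct pathway genes not called, Isl1 was near the threshold (adjusted p = 0.0543, edgeR) and Drd1 was not. Whether the pathways differ was not tested. In bulk tissue, fewer cells of a type and less RNA per cell cannot be told apart.

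**Figure D1:**
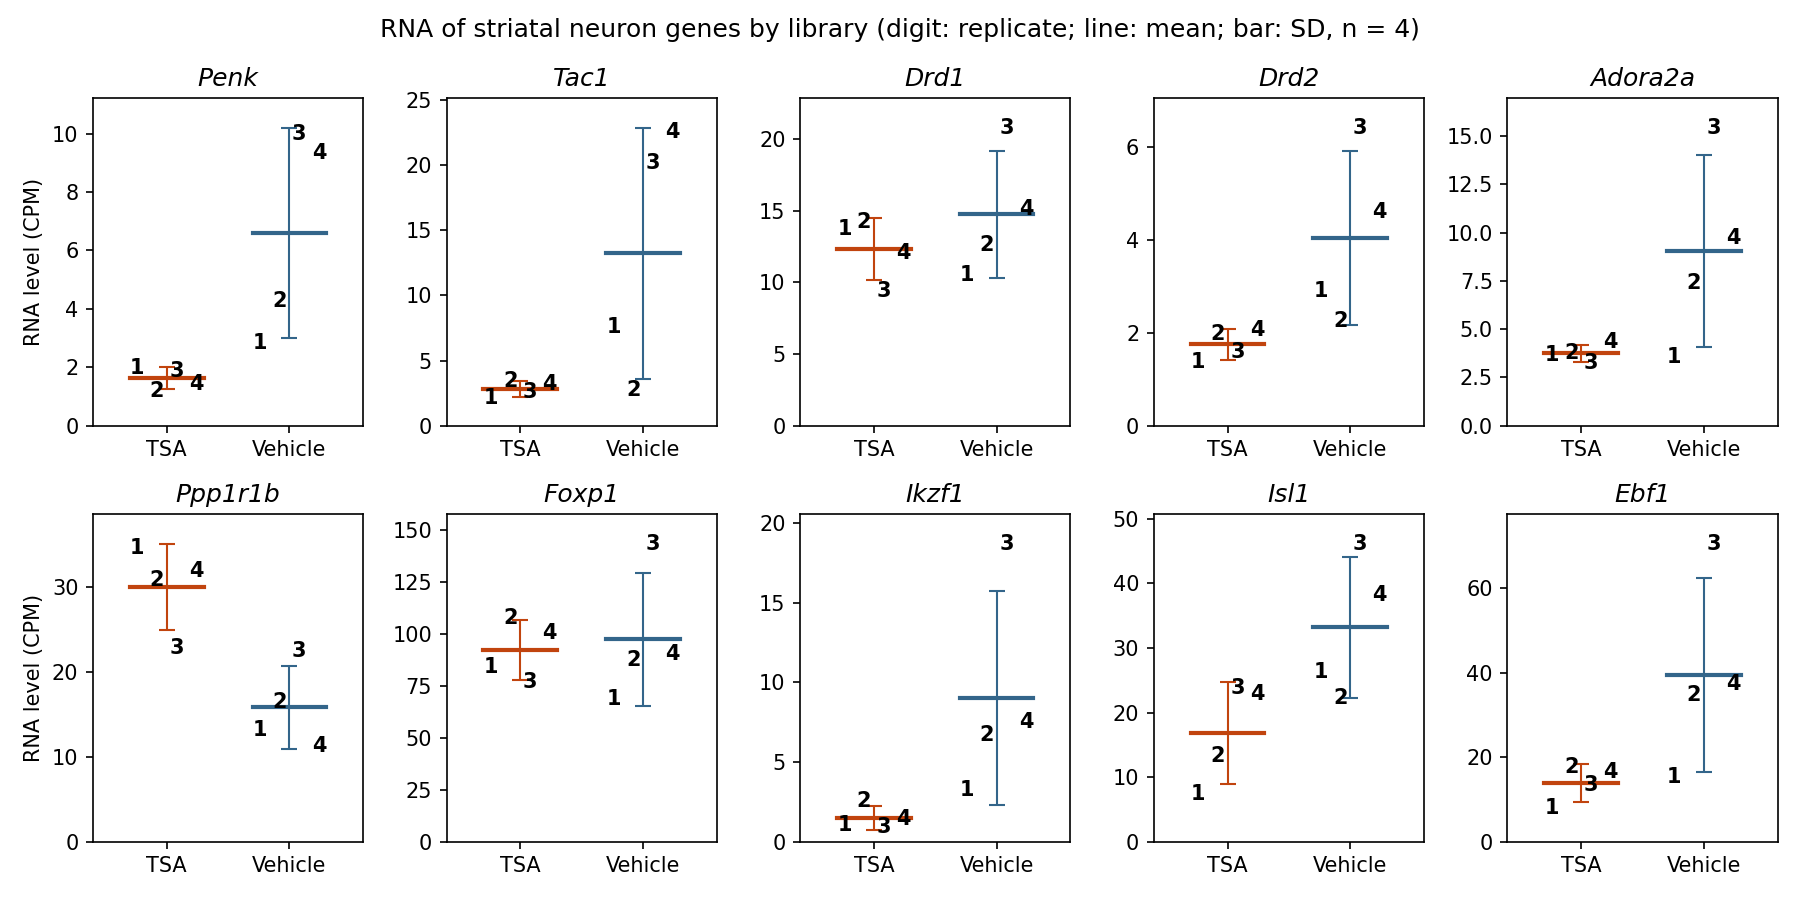
RNA level in CPM (vertical axis, linear, from 0, each panel with its own scale) of the 10 genes in TSA (left) and Vehicle (right), where each digit is the library with that replicate number, the thick line the mean and the bar the SD (n = 4 each). Vehicle libraries 3 and 4 stand highest for Penk and Tac1, and only the Ppp1r1b panel has every TSA library above every Vehicle library.

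Both neuropeptide genes fell. Penk (ENSMUSG00000045573, chr4:4133536-4138815, mm10), the precursor of the enkephalins, had 1.98, 1.19, 1.88 and 1.44 CPM in TSA 1 to 4, against 2.82, 4.25, 9.99 and 9.34 CPM in Vehicle 1 to 4. Every TSA library lay below every Vehicle library, and Vehicle 3 and 4 lay well above Vehicle 1 and 2. The means were 1.62 ± 0.373 CPM in TSA and 6.60 ± 3.60 CPM in Vehicle (SD, n = 4 each), and the log2 fold change was −2.05 ± 0.38 (SE, adjusted p = 0.00124, edgeR). The depth behind these levels was small, 13 to 38 reads per TSA library and 41 to 145 per Vehicle library. Tac1 (ENSMUSG00000061762, chr6:7555061-7562978, mm10), the precursor of substance P, had 2.13, 3.45, 2.57 and 3.19 CPM in TSA 1 to 4, against 7.56, 2.71, 20.2 and 22.6 CPM in Vehicle 1 to 4. Vehicle 2 lay within the TSA range, so the groups overlapped, while Vehicle 3 and 4 were the highest. The log2 fold change of Tac1 was −2.18 ± 0.58 (SE, adjusted p = 0.0179, edgeR), and without TSA 3 it was no longer called (adjusted p = 0.0792, edgeR). It was also not called by limma-voom, without the low-count filter, or without Vehicle 1 and Vehicle 4, with adjusted p-values of 0.0604, 0.105 and 0.0870.

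Among the receptors, Drd2 and Adora2a fell and Drd1 did not pass. Drd2 (ENSMUSG00000032259, chr9:49340360-49408177, mm10), the D2 dopamine receptor of indirect pathway neurons, had 1.37, 1.98, 1.58 and 2.06 CPM in TSA 1 to 4, against 2.89, 2.26, 6.41 and 4.59 CPM in Vehicle 1 to 4. The groups did not overlap, though Vehicle 2 stood just above the highest TSA library. The log2 fold change was −1.17 ± 0.32 (SE, adjusted p = 0.0112, edgeR). Adora2a (ENSMUSG00000020178, chr10:75316877-75334792, mm10), the adenosine receptor that sits with Drd2 on the same neurons, had 3.66, 3.78, 3.26 and 4.31 CPM in TSA 1 to 4, against 3.58, 7.41, 15.4 and 9.74 CPM in Vehicle 1 to 4. Vehicle 1 lay within the narrow TSA range and the other Vehicle libraries lay above it. Its log2 fold change was −1.26 ± 0.34 (SE, adjusted p = 0.0117, edgeR). Drd1 (ENSMUSG00000021478, chr13:54051183-54055658, mm10), the D1 dopamine receptor of direct pathway neurons, had 13.7, 14.2, 9.43 and 12.1 CPM in TSA 1 to 4, against 10.5, 12.6, 20.8 and 15.1 CPM in Vehicle 1 to 4. The groups overlapped, and the log2 fold change of −0.27 had a 95% interval of −0.69 to 0.16 (adjusted p = 0.335, edgeR).

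Ppp1r1b was the gene that rose. It encodes DARPP-32, an inhibitor of protein phosphatase 1 that acts downstream of dopamine receptors (ENSMUSG00000061718, chr11:98348406-98357796, mm10). Its levels were 34.6, 30.8, 22.9 and 31.8 CPM in TSA 1 to 4, against 13.1, 16.5, 22.5 and 11.2 CPM in Vehicle 1 to 4. Every TSA library lay above every Vehicle library, with TSA 3 and Vehicle 3 nearly level. The means were 30.02 ± 5.03 CPM in TSA and 15.8 ± 4.92 CPM in Vehicle (SD, n = 4 each), a log2 fold change of 0.91 ± 0.19 (SE, adjusted p = 0.00272, edgeR). An overlapping long non-coding gene, 1700003D09Rik, from which reads cannot be told apart without strand, was counted at 0 to 0.444 CPM in TSA and 0.0645 to 0.317 CPM in Vehicle.

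Of the transcription factors, Ikzf1 and Ebf1 fell. Ikzf1 (ENSMUSG00000018654, chr11:11684962-11772930, mm10), the zinc finger factor Ikaros, had 1.07, 2.54, 0.938 and 1.44 CPM in TSA 1 to 4, against 3.23, 6.70, 18.7 and 7.52 CPM in Vehicle 1 to 4. The groups did not overlap, and Vehicle 3 stood far above the rest. The log2 fold change was −2.54 ± 0.53 (SE, adjusted p = 0.00400, edgeR), the most negative of the 10 genes, and it was −1.91 without Vehicle 3. Of the 11 lymphoid markers, 1 (Lck) was abundant enough to be tested and did not pass, Cd3g was at 0 in every library, and the sum was 4.19 to 6.62 CPM in TSA and 3.51 to 7.76 CPM in Vehicle. Ebf1 (ENSMUSG00000057098, chr11:44618100-45008096, mm10), a helix-loop-helix factor of early direct pathway neurons, had 7.93, 17.7, 13.5 and 16.6 CPM in TSA 1 to 4, against 15.3, 34.8, 70.4 and 37.4 CPM in Vehicle 1 to 4. Vehicle 1 lay within the TSA range. The log2 fold change was −1.46 ± 0.42 (SE, adjusted p = 0.0260, edgeR), and the call was lost without Vehicle 2, without Vehicle 4 or without TSA 3, with adjusted p-values of 0.0910, 0.0612 and 0.0947 (edgeR). It was lost as well without the low-count filter and with lane in the model (adjusted p-values of 0.125 and 0.0855).

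Foxp1 and Isl1 did not pass. Foxp1 (ENSMUSG00000030067, chr6:98925342-99522746, mm10), a forkhead factor of both pathways and of cortical neurons, had 83.8, 107.5, 76.7 and 100.3 CPM in TSA 1 to 4, against 68.6, 87.3, 143 and 90.4 CPM in Vehicle 1 to 4. The groups overlapped, with Vehicle 3 the highest and Vehicle 1 the lowest of the 8, and the log2 fold change was −0.08 with a 95% interval of −0.50 to 0.35 (adjusted p = 0.799, edgeR). Isl1 (ENSMUSG00000042258, chr13:116298270-116309688, mm10), a LIM homeodomain factor of direct pathway and cholinergic neurons, had 7.47, 13.2, 23.8 and 22.9 CPM in TSA 1 to 4, against 26.3, 22.3, 46.1 and 38.2 CPM in Vehicle 1 to 4. TSA 1 and 2 lay below every Vehicle library, and TSA 3 and 4 lay just above Vehicle 2. The log2 fold change was −0.93 with a 95% interval of −1.67 to −0.19 (adjusted p = 0.0543, edgeR), and it was called without TSA 3 or without TSA 4, with adjusted p-values of 0.0395 and 0.0360 (edgeR). It was also called lower with lane in the model and by limma-voom, with adjusted p-values of 0.0234 and 0.0293.

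**Figure D2:**
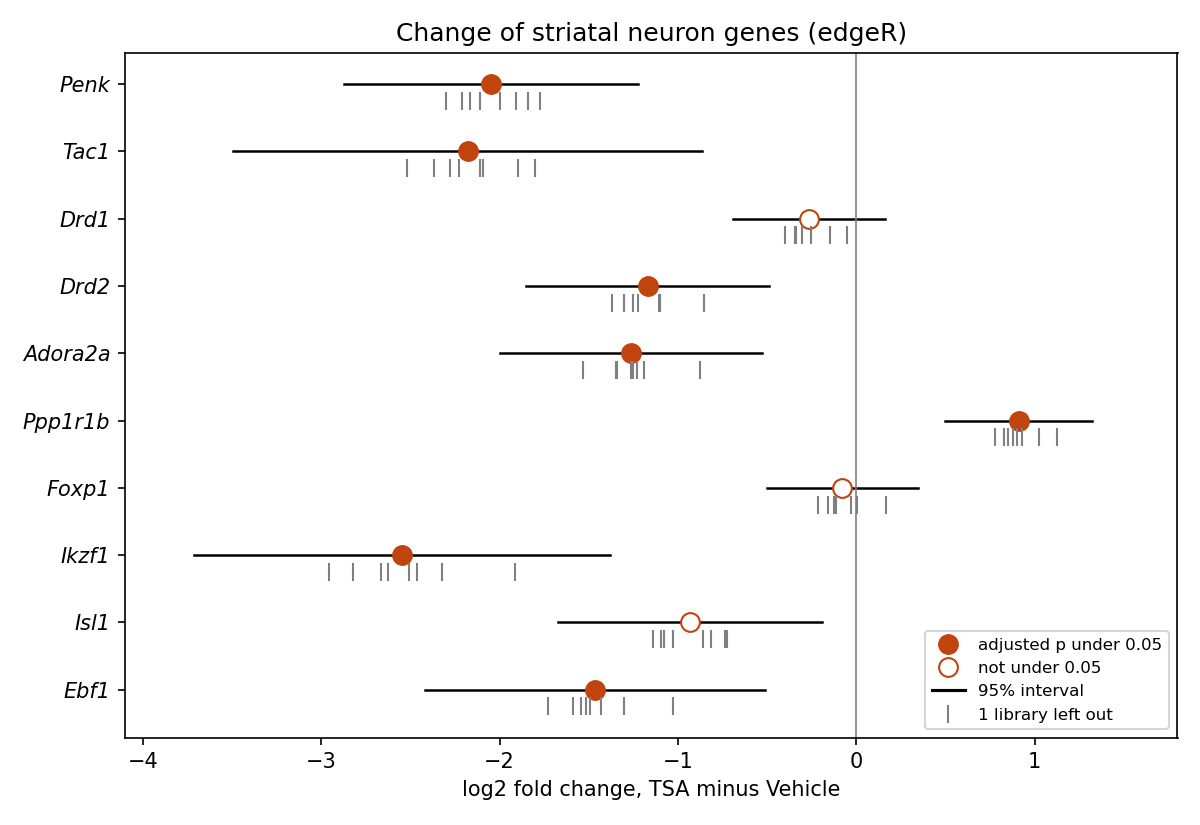
Log2 fold change, TSA minus Vehicle, of each gene by edgeR (circle, filled where the adjusted p was under 0.05), with its 95% interval (line) and the values with each of the 8 libraries left out in turn (grey ticks). The 6 filled circles left of 0 are Penk, Tac1, Drd2, Adora2a, Ikzf1 and Ebf1, and Ppp1r1b lies right of it.

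The calls rested on groups that also differed in Xist and in sequencing lane. With log2 Xist level as a term in the model, edgeR called 0 of the 10 genes lower and 0 higher, with 2 lower and 1 higher at an unadjusted p under 0.05. Over all tested genes that model called 775 lower and 741 higher. The directions of the 7 called genes were kept. Nearest to the threshold were Penk at −2.26 (adjusted p = 0.0508, edgeR), Ppp1r1b at 0.96 (adjusted p = 0.0513, edgeR) and Ikzf1 at −2.74 (adjusted p = 0.0925, edgeR). Tac1, Drd2, Adora2a and Ebf1 were far from it, with adjusted p-values of 0.2202, 0.2597, 0.2204 and 0.2399 (edgeR). TSA 4, the TSA library with high Xist, lay below every Vehicle library for 3 of the 6 lower genes (Penk, Drd2 and Ikzf1) and above every Vehicle library for Ppp1r1b. These are the same genes for which the groups did not overlap. TSA 4 was among the libraries that gave these calls, so its position is no separate test. TSA 1 to 3 and the whole Vehicle group have no Xist level in common, so for those libraries Xist level and treatment cannot be told apart. Lanes, as the file names give them, held TSA 1, TSA 2 and Vehicle 1 in lane 1, TSA 3 and Vehicle 2 in lane 2, and TSA 4, Vehicle 3 and Vehicle 4 in lane 3. In lanes 1, 2 and 3 the log2 differences were −0.82, −1.13 and −2.64 for Penk, −1.43, −0.073 and −2.69 for Tac1, and −0.91, −2.67 and −2.93 for Ikzf1. They were −0.76, −0.48 and −1.34 for Drd2, −0.37, −1.36 and −1.62 for Ebf1, and 1.30, 0.47 and 0.995 for Ppp1r1b. Adora2a was level in lane 1, at 0.055, and lower in the others, at −1.15 and −1.48. Each lane holds too few libraries for a test of its own.

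The genes varied more among Vehicle libraries than most genes did. The median ratio of the highest to the lowest library within a group was 1.56 in TSA and 3.19 in Vehicle for the 10 genes, against 1.24 in TSA and 1.38 in Vehicle for all tested genes. For the ganglionic eminence and GABA neuron list it was 1.67 in TSA and 1.48 in Vehicle. Vehicle 3 was the highest Vehicle library for 9 of the 10 genes, or 90.0%, and for 20.4% of all tested genes. It was also the highest for 61.8% of the other striatal genes, 55.6% of the ganglionic eminence genes and 55.6% of the medial eminence genes tested. Tac1, highest in Vehicle 4, was the exception. Vehicle 3 was also the highest of all 8 libraries for 8 of the 10. As medians over the 10 genes, the log2 deviations from each gene's own mean were −0.71, −0.35, −0.65 and −0.31 in TSA 1 to 4, against −0.22, −0.02, 1.38 and 0.81 in Vehicle 1 to 4. Vehicle 3 and Vehicle 4 were each above every TSA library for 6 of the 6 lower genes, while Vehicle 1 was not for Adora2a and Ebf1. The same libraries gave the calls of these genes, so these positions are descriptions only. How many of all tested genes had Vehicle 3 or Vehicle 4 above every TSA library, or Vehicle 3 highest of all 8, was not counted. How much neighbouring ventral tissue each library held was not recorded in the labels, and its part in these differences was not tested.

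**Figure D3:**
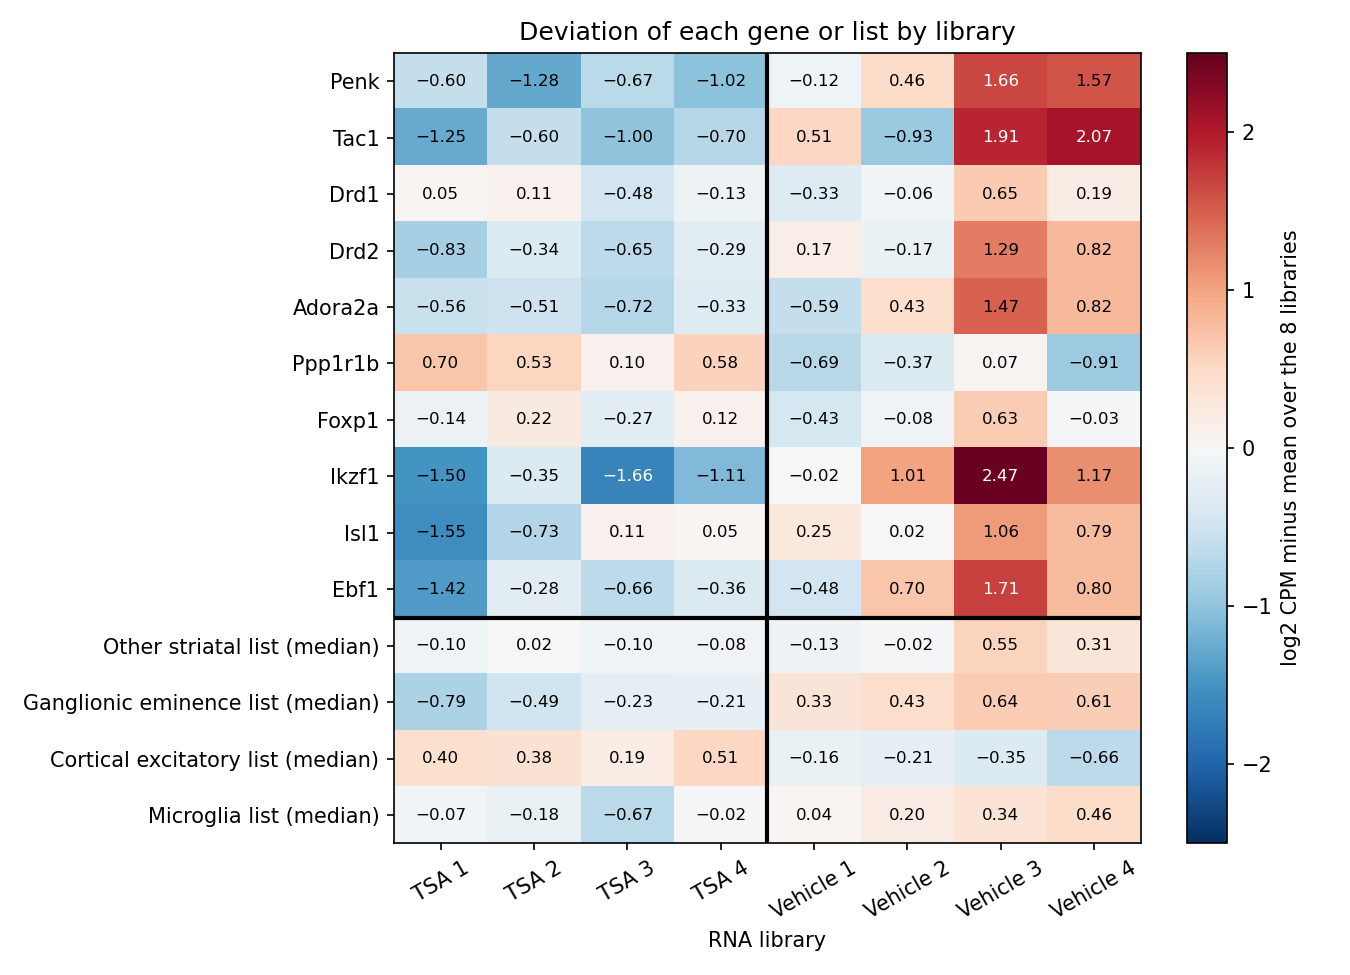
Log2 CPM minus the gene's mean over the 8 RNA libraries (colour and number) for the 10 genes, and below them the median of the same value over 4 gene lists. Vehicle 3 and Vehicle 4 are red in most of the gene rows, with Vehicle 3 at 2.47 for Ikzf1, while the ganglionic eminence list is above 0 in all 4 Vehicle libraries.

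Genes of other cell types were called beside them, to be read against the 33.0% of all tested genes that were called. The ganglionic eminence and GABA neuron list, whose most abundant genes were Dlx1 and Dlx6os1, had 15 of 18 tested genes lower, 0 higher and a median log2 fold change of −0.85. None was higher at an unadjusted p under 0.05, or by DESeq2 or limma-voom. It summed to 682, 766, 981 and 900 CPM in TSA 1 to 4, against 1631, 1623, 1882 and 1869 CPM in Vehicle 1 to 4, with no overlap. Dlx1, a homeobox factor of the eminences and of migrating interneurons, averaged 209 CPM in TSA and 468 CPM in Vehicle. Dlx6os1 averaged 84.3 CPM in TSA and 348 CPM in Vehicle. The medial eminence and cholinergic list, by contrast, had 5 of 9 tested genes higher (Gbx1, Nkx2-1, Sox6, Lhx6 and Lhx8) and 0 lower, with a median of 0.51. Its most abundant genes were Sox6 and Lhx6. The dorsal excitatory list had 13 of 15 tested genes higher and 1 lower (Pax6), with a median of 0.82. Neurod6, a factor of cortical excitatory neurons, averaged 902 CPM in TSA and 665 CPM in Vehicle, and Tbr1, a factor of deep layer neurons, averaged 470 CPM in TSA and 253 CPM in Vehicle. Microglial markers had 6 of 14 tested genes lower and summed to 46.1 to 62.2 CPM in TSA and 62.5 to 82.2 CPM in Vehicle. The most abundant of them, Csf1r and Cx3cr1, did not pass, at 14.1 and 9.85 CPM in TSA and 15.4 and 8.77 CPM in Vehicle. Endothelial and mural markers had 4 of 12 lower and 1 higher, near that background, their sums overlapped, and their most abundant genes were Rgs5 (log2 fold change −0.96, called) and Kdr (0.12, not called). As in the ganglionic eminence list, no gene was called the other way by any of the 3 tools in the medial eminence or microglial lists. The part of these cell types in the results was not tested.

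Other genes listed for striatal projection neurons were called in both directions. The list is broad, and some of its genes, such as Helt, Sst and Npy, are not specific to these neurons. Its counts therefore do not describe striatal projection neurons alone. Of 41 listed genes, 38 were in the files and 34 were tested, of which 7 rose and 10 fell, with a median log2 fold change of −0.23. Among all tested genes 15.4% rose and 17.6% fell, and whether the list departs from that background was not tested. The list summed to 2506 to 2727 CPM in TSA, inside the 2082 to 2817 CPM of Vehicle. Among those that fell, Nts, the precursor of neurotensin, averaged 4.55 ± 1.26 CPM in TSA and 29.5 ± 12.7 CPM in Vehicle (SD, n = 4 each). Sp9, a zinc finger factor of indirect pathway neurons, averaged 17.7 ± 2.41 CPM in TSA and 44.5 ± 9.14 CPM in Vehicle. Foxp2, a forkhead factor of striatal and deep cortical neurons, averaged 42.8 ± 6.84 CPM in TSA and 92.2 ± 27.7 CPM in Vehicle. Helt, a factor of GABA neuron fate that is not specific to the striatum, averaged 0.258 ± 0.0662 CPM in TSA and 2.41 ± 0.527 CPM in Vehicle. The Helt levels rested on 2, 3, 5 and 5 reads in TSA 1 to 4, against 31, 28, 40 and 37 in Vehicle 1 to 4. Their log2 fold changes were −2.65 for Nts, −1.32 for Sp9, −1.09 for Foxp2 and −3.22 for Helt. Those that rose with the smallest p-values were Pde1b, Zfp521, Adcy5 and Pde10a, with log2 fold changes of 1.75, 0.71, 0.49 and 0.50. Pde1b and Pde10a are phosphodiesterases and Adcy5 is an adenylyl cyclase, enzymes of the cyclic nucleotide signalling in which DARPP-32 also acts, and Pde1b averaged 152 ± 11.8 CPM in TSA and 45.0 ± 3.83 CPM in Vehicle (SD, n = 4 each). The count of lower genes in this list was 6 without Vehicle 4, without TSA 1 or without TSA 3.

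The 10 genes did not follow the 8 libraries as a single pattern. By the root mean squared difference of centred log2 CPM over the 8 libraries, the nearest pairs were Drd1 with Foxp1 at 0.165, Adora2a with Ebf1 at 0.342 and Drd2 with Adora2a at 0.369. The farthest pair was Ikzf1 with Ppp1r1b at 1.73. Among 14483 other tested genes, those near to Ikzf1 included Rxrg at 0.418 and Rarb at 0.557, and the nearest to Ebf1 were Foxp2 at 0.368, Zfp503 at 0.373 and Pbx3 at 0.377. Those near to Penk included Tnfaip6 at 0.407 and Gm13835 at 0.456, and those near to Tac1 included Sowaha at 0.581 and Gm13461 at 0.603. All points share the same 8 libraries and the same group difference, so these distances are descriptions.

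H3K9ac, an acetylation mark of active promoters and enhancers that deacetylase inhibitors raise, was available as peak lists called library by library. The lists held 46714, 53285, 32248 and 61217 peaks in TSA 1 to 4, against 41987, 41331, 43645 and 22668 in Vehicle 1 to 4. Vehicle 4 had the shortest list although it had the most tags, 24075842. A peak within 1 kb of an annotated start was present for 40.6% to 48.7% of 27025 genes in TSA lists and 35.5% to 45.4% in Vehicle lists. For Penk, Adora2a and Ppp1r1b, a peak within 1 kb of either gene end was counted instead.

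Promoters of 7 of the 10 genes, with 12 annotated starts, could be read from RefSeq (GRCm38.p6, the assembly called mm10), and they show how different these start regions are. The lines below give the 250 bases before a start of Ikzf1, Isl1, Foxp1, Tac1 and Drd2, which span the range from no H3K9ac peak to a peak in all 8 lists. They are written 5′ to 3′ on the strand of the gene, with CpG dinucleotides in capitals.
Ikzf1 (chr11:11685675-11685924, plus strand): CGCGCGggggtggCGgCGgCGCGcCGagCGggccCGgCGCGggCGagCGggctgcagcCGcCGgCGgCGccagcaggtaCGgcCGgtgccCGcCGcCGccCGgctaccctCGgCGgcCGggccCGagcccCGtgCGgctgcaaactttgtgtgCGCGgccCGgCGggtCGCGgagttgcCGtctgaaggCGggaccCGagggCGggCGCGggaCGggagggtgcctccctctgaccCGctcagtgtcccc
Isl1 (chr13:116309689-116309938, minus strand): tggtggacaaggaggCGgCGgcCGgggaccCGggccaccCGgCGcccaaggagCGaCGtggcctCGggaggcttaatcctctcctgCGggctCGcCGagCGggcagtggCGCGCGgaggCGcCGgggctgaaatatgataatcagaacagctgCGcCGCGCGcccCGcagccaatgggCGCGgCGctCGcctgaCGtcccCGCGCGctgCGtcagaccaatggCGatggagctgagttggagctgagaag
Foxp1 (chr6:99028299-99028548, minus strand): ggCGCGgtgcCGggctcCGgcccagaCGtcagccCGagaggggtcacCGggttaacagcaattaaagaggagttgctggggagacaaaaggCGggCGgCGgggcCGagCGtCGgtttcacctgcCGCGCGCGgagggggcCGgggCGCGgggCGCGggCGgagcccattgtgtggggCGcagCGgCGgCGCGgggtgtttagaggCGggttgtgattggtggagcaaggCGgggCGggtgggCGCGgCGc
Tac1 (chr6:7554811-7555060, plus strand): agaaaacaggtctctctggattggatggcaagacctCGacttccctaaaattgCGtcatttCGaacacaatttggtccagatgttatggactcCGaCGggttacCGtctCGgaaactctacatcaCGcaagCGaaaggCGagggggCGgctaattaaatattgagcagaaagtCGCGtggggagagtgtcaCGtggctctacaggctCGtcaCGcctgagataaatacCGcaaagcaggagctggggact
Drd2 (chr9:49340153-49340402, plus strand): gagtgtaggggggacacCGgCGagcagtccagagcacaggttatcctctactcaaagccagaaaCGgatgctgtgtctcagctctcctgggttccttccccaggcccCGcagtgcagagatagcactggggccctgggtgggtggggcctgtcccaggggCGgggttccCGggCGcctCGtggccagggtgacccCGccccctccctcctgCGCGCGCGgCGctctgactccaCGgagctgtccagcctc
The Ikzf1 window held 44 CpGs, more than 99.5% of the 32851 promoters in the table, and its second start, at 11690177, held 1. The windows printed for Foxp1, Isl1, Tac1 and Drd2 held 34, 33, 17 and 15 CpGs, where the quartiles of all promoters were 2, 6 and 16. The cyclic AMP response element TGACGTCA (1.55% of all promoters) and TATAAA (12.4%) were in 0 of the 12 windows on either strand. The homeodomain core TAATTA (4.84% of all promoters) was in 2, those of Tac1 and of a Foxp1 start at 99266515, and the GC box GGGCGG (32.7%) was in 6.

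No gene of the 10 had a peak at its start in all lists of 1 group and none of the other, the pattern that was called. Over all 27025 genes, 0.0703% had it in TSA and 0.0037% in Vehicle. Penk, Adora2a and Drd2 came nearest. Penk had a peak in TSA 1, 2 and 4 and in no Vehicle list, at chr4:4138249-4138818 and chr4:4138881-4139138 around the gene's end coordinate, and so did Adora2a, at chr10:75316694-75317019 and chr10:75317141-75317577 around its start coordinate. A split of 3 lists against 0 has a two-sided Fisher's exact p of 0.1429, and 4 against 0, the most extreme split, has 0.0286. Drd2 had a peak in TSA 1 and 4 and in no Vehicle list, at chr9:49340677-49341071, with the authors' fold enrichments at 4.62 or below. At least 2 TSA lists and no Vehicle list held a peak at an annotated start for 1.35% of all genes, and the reverse held for 0.185%. Penk and Adora2a were counted at either gene end, so these shares are not for like windows. At a q limit of 0.01, Penk kept a peak in 2 TSA lists. Penk, Adora2a and Drd2 were lower in RNA in TSA.

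Ikzf1 had no peak at its start or anywhere within 10 kb of the gene in any of the 8 lists, and 46.6% of all genes had none at their start in any list. At the other extreme, Foxp1 and Ppp1r1b had a peak in all 8, as did 33.3% of all genes. The Foxp1 peaks lay at its upstream start, chr6:99519779-99523812, and at an internal start, the window printed above, chr6:99027042-99028268 and chr6:99028332-99029115. The authors' fold enrichment at the upstream region was 10.9, 9.18, 8.67 and 16.1 in TSA 1 to 4, against 13.5, 10.5, 11.5 and 8.995 in Vehicle 1 to 4, so the groups overlapped. Ppp1r1b held a region at chr11:98348032-98349438 in all 8 lists, with fold enrichments of 8.31, 6.26, 5.78 and 9.23 in TSA 1 to 4, against 4.66, 7.01, 7.36 and 5.0 in Vehicle 1 to 4, which also overlapped. Its other regions found in all 8 lists belong to neighbours, at the start of Stard3 (chr11:98358382-98359500) and within Gm33099 (chr11:98339083-98340384). Stard3 had a log2 fold change of 0.08 (adjusted p = 0.622, edgeR).

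The direct pathway genes had peaks in some lists of each group. At Tac1, chr6:7554996-7555569 was a peak in 4 TSA and 2 Vehicle lists, those of Vehicle 1 and 2, and at Drd1, chr13:54054729-54055771 was a peak in 4 TSA lists and in Vehicle 1 to 3. Isl1 had a peak at chr13:116309924-116310317 in 2 TSA and 3 Vehicle lists, and Ebf1 had a peak near a start in 2 TSA lists and 1 Vehicle list. Over all genes, more TSA than Vehicle lists held a peak at 11.8% and fewer at 4.42%. Counted per library, 7, 7, 5 and 9 of the 10 genes had a peak in TSA 1 to 4, against 5, 6, 4 and 2 in Vehicle 1 to 4. The library with the fewest, Vehicle 4, also had the shortest list.

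**Figure D4:**
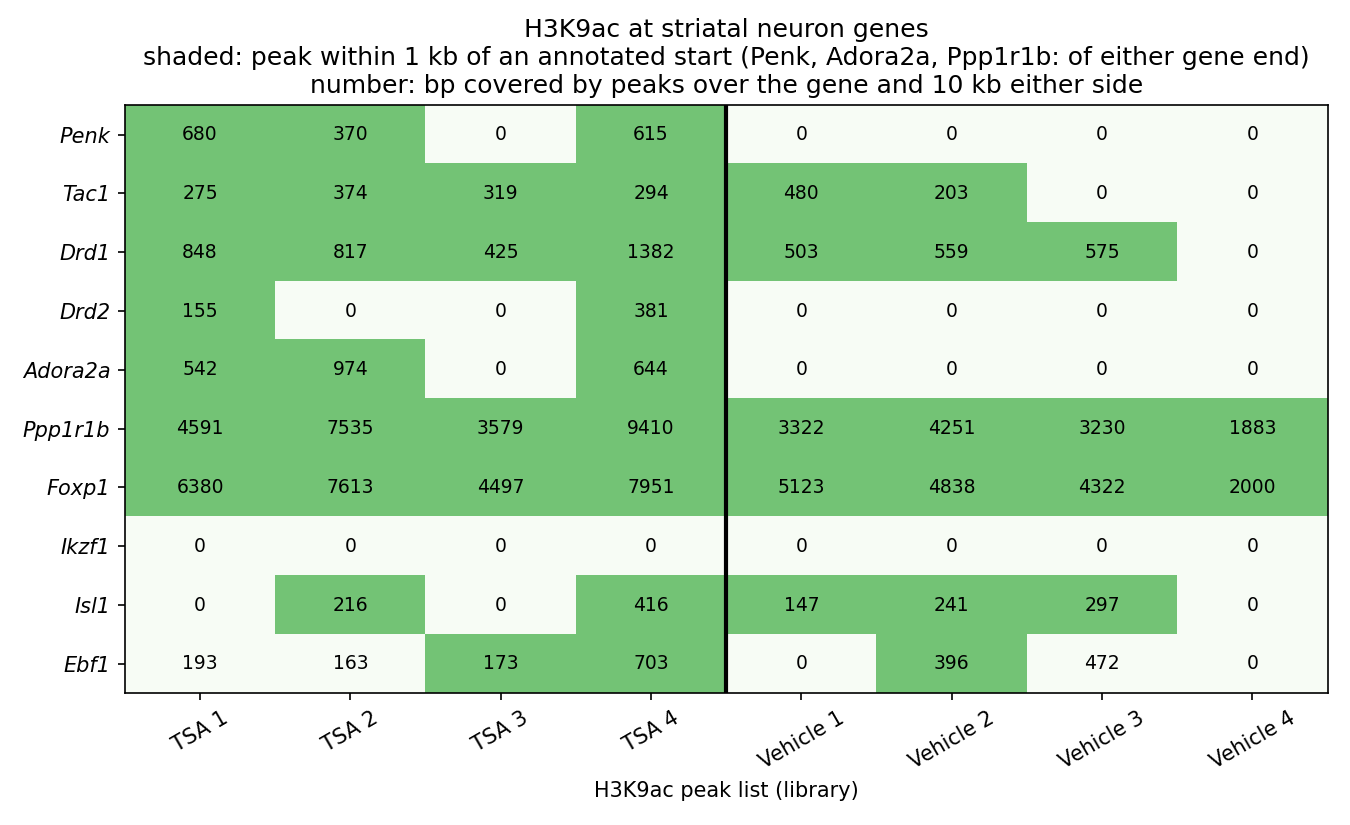
H3K9ac peaks at the 10 genes in each of the 8 peak lists, shaded where a peak lay within 1 kb of an annotated start (of either gene end for Penk, Adora2a and Ppp1r1b), with the number of base pairs covered by peaks over the gene and 10 kb either side. Penk, Adora2a and Drd2 are shaded in TSA lists only, Ikzf1 is at 0 throughout, and Foxp1 and Ppp1r1b are shaded in all 8.

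The length covered by peaks over the gene and 10 kb either side depended on whether it was scaled to how much was called in each list. In base pairs, none of the 10 genes had a p under 0.05 by an exact two-sided permutation test over the 8 libraries (p-values not adjusted), and 0 of the 9 genes with a peak had groups that did not overlap. Over the 28647 genes with a peak, 2.27% had every TSA list above every Vehicle list and 0.0768% the reverse. Ppp1r1b was covered over 4591, 7535, 3579 and 9410 bp in TSA 1 to 4, against 3322, 4251, 3230 and 1883 bp in Vehicle 1 to 4 (exact p = 0.0571). Foxp1 was covered over 6380, 7613, 4497 and 7951 bp in TSA 1 to 4, against 5123, 4838, 4322 and 2000 bp in Vehicle 1 to 4 (exact p = 0.0857). For both genes TSA 3, which has the shortest TSA list, lay within the Vehicle range in base pairs. Penk was covered over 680, 370, 0 and 615 bp in TSA 1 to 4 and over 0 bp in each Vehicle list (exact p = 0.143). The whole lists covered 12498718 to 26296209 bp in TSA and 8157956 to 19280642 bp in Vehicle. Scaled to these totals, a comparison chosen after seeing the data, Ppp1r1b and Drd1 (2 of the 9 genes) had every TSA list above every Vehicle list, as did 2.71% of all genes with a peak, while 3.40% had the reverse. Ppp1r1b then had 252, 374, 286 and 358 bp per Mb of peaks in TSA 1 to 4, against 199, 248, 168 and 231 bp per Mb in Vehicle 1 to 4 (exact p = 0.0286, the smallest possible). Drd1 had 46.6, 40.6, 34.0 and 52.6 bp per Mb in TSA 1 to 4, against 30.2, 32.6, 29.8 and 0 bp per Mb in Vehicle 1 to 4 (exact p = 0.0286). The Ppp1r1b window includes the peaks of its neighbours named above. Of the 80 merged peak regions at the 10 genes, 6 were in all 8 lists, 0 were in all TSA lists and no Vehicle list or the reverse, and 43 were in 1 list only.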

How the data were processed

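RNA was isolated with TRIzol from whole tissue and libraries were made with the TruSeq RNA v2 kit, per the labels' protocols, and this kit keeps no strand. The deposited files hold raw counts per gene, with the aligner and counter not given in the sources used here. H3K9ac was immunoprecipitated and, per the file headers, the authors called peaks in each library with MACS 2.1.0.20140616 against an input with 18937878 tags, at a q limit of 0.1. The submitters' processing notes name mm10. The deposited peak lists give each summit's pileup signal, its fold enrichment and its −log10 p and q values. The 2 input samples were not analysed here.

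Counts were tested with edgeR 4.0.16 (TMM, low-count filter, robust quasi-likelihood, R 4.3.3) over 15000 genes with Benjamini-Hochberg adjustment, and genes under 0.05 were called. CPM used TMM library sizes, and fits with no replicate term were the ones reported. Peaks were matched to RefSeq starts within 1 kb. Exact permutation and Fisher's tests were two-sided, and the scripts were tested on simulated data. Members and lists were chosen with earlier results of these data known. All 10 genes were named, with the 4 smallest p-values in each direction of the striatal list, the 2 most abundant genes of the lists described and the 3 nearest genes of the 4 called genes with the largest fold changes, of which 1 is not reported here. Alternatives used DESeq2 1.42.0, limma 3.58.1, other filters and scalings, lane, Xist, stricter peaks and left-out libraries.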

Additional observations from a re-analysis of the deposited data

Results flagged for a closer look

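At Drd1, the length covered by H3K9ac peaks was 0 bp in Vehicle 4, against 503 to 575 bp in the other Vehicle lists, and this library stood far from the others of its group. At Ebf1, TSA 4 had 703 bp covered, against 163 to 193 bp in the other TSA lists. Vehicle 4 had the shortest peak list of the 8 and TSA 4 the longest. Of 35 groups of 4 libraries examined in this way, 2 were picked out, and chance picks out about 1 in 20.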

How the results depend on the processing

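Scaling by RLE size factors and DESeq2 changed no call among the 10 genes. Without a low-count filter, Tac1 (−2.16) and Ebf1 (−1.46) were no longer called, leaving 4 lower. With limma-voom Tac1 was not called (−1.71) and Isl1 was (−0.90). With lane in the model, Ebf1 was not called (−1.10), Isl1 was (−0.75) and Foxp1 changed sign (0.036). Without Vehicle 1 and Vehicle 4, Tac1 was not called (−1.97).

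With Xist in the model no gene was called, at −2.26 for Penk, −2.01 for Tac1, −0.98 for Drd2, 0.020 for Foxp1, −2.74 for Ikzf1, 0.96 for Ppp1r1b, −1.13 for Adora2a and −1.30 for Ebf1. The counts were then 0 lower and 0 higher among the 10 genes, 3 lower and 3 higher in the other striatal list, and 775 lower and 741 higher among all genes. In the 5 libraries with high Xist, a comparison chosen after seeing the data with 1 TSA library assumed to vary like the others, they were 0 and 0, 2 and 1, and 195 and 258. The values there were −2.18 for Penk, −2.04 for Tac1, −0.96 for Drd2, 0.046 for Foxp1, −2.64 for Ikzf1, 1.01 for Ppp1r1b, −1.06 for Adora2a and −1.24 for Ebf1. The cause of these changes was not tested.

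Replicate numbers are shared by the groups, but same-numbered libraries deviated together only weakly (correlations of 0.0970, 0.0851, 0.0696 and 0.111), and TSA 3 correlated best with Vehicle 2. With the replicate number as a block, 6 genes were lower and 1 higher, Isl1 being called (−1.001, adjusted p = 2.58e-05, edgeR) and Tac1 not (−1.96, adjusted p = 0.108, edgeR). Among all tested genes, 2744 were lower and 2598 higher in that fit.

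Within lane 1 the values were −0.82 for Penk, 0.41 for Drd1, 0.47 for Foxp1, −0.91 for Ikzf1, 1.30 for Ppp1r1b, 0.055 for Adora2a and −0.37 for Ebf1. Within lane 2 they were −1.13 for Penk, −0.073 for Tac1, −0.48 for Drd2, 0.47 for Ppp1r1b and 0.093 for Isl1.

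Leaving out each library in turn gave −2.30 to −1.77 for Penk, −2.52 to −1.80 for Tac1, −0.40 to −0.05 for Drd1, −1.37 to −0.85 for Drd2, −0.21 to 0.17 for Foxp1, −2.96 to −1.91 for Ikzf1, 0.78 to 1.12 for Ppp1r1b, −1.53 to −0.87 for Adora2a, −1.14 to −0.73 for Isl1 and −1.73 to −1.03 for Ebf1. Foxp1 was positive without Vehicle 3 (0.17) and without TSA 3 (0.0039). The counts were 5 to 7 lower and 1 higher among the 10 genes, 6 to 11 lower and 6 to 8 higher in the other striatal list, and 2104 to 2891 lower and 1707 to 2702 higher among all genes. The 2 genes with H3K9ac in all TSA lists and no Vehicle list, once TSA 3 was left out, were Penk and Adora2a, against 0 with all lists. A q limit of 0.01 left 5 of the 10 genes with a peak in TSA 2, against 7 as deposited, and no other library's number changed under it, with summits in the window or with a window of 2.5 kb. Scaled to the covered length of each list, chosen after seeing the data, the H3K9ac difference passed 0.05 at Drd1 (20.3 bp per Mb) and Ppp1r1b (106.39 bp per Mb), where the difference in bp had not. With 4 libraries a group, an exact test over libraries cannot go below 0.0286, and low read counts limit Penk, Tac1, Drd2 and Ikzf1.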
